A study of Homo sapiens with 2 samples.

Results

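Cancer-testis antigen genes were compared between R-HL60, a cytarabine-resistant line, and HL60, the parental acute myeloid leukaemia line of promyelocytic character. The members were chosen by name: array rows called XAGE, GAGE, PAGE, MAGEA to MAGEF, SSX or CTAG, together with PRAME, BAGE, LY6K and TCAM1P. They made up 88 of 58201 rows and 64 of 43317 gene names. The name patterns also took in SSX2IP and CTAGE5, which encode proteins found in many tissues, and the antisense transcript MAGEA8-AS1. LY6K and TCAM1P came into the list from earlier results on these arrays, and that of XAGE1B was known too, so their values are a description. R-HL60 was raised from HL60 by continuous growth in rising concentrations of cytarabine, a deoxycytidine analogue that stops DNA synthesis, and HL60 was untreated; the same serum-containing medium was used for both. The sources used here do not state whether R-HL60 is a clone or whether the drug was present at harvest. Each line had 1 Agilent one-colour array, so no difference has a test and the line cannot be told apart from its array.

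Cancer-testis genes are active in male germ cells and silent in most adult tissues, and tumours can switch them on again. Many lie on the X chromosome in clusters of recent copies. Methylation of the cytosine in the dinucleotide CG at their promoters is a known means by which somatic cells keep many of them silent. Because T cells can recognise peptides from these proteins, several are targets of vaccines and engineered T cells. Copies that arose recently may bind the same array probe, so names with promoter sequences at least 90% identical were counted as 1 signal, represented by the brightest row. This joined MAGEA12 to MAGEA2B, GAGE7 to GAGE1, CTAGE15 to CTAGE4, and SSX4B, SSX5 and SSX7 to SSX2, which left 58 signals. Promoter sequences were available for 45 of the 64 names. The rest could not be joined by this rule and were counted singly, whether or not they are near-identical copies.

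3 promoter windows are printed because they cover the member with the largest difference, another with lower signal in R-HL60 and one with nearly equal signal in both lines. Each window runs from 250 bases before to 50 bases after a RefSeq transcript start in GRCh38.p14, 5′ to 3′ on the gene's strand, with every CG in capitals. The XAGE1B window lies at chrX:52516963-52517262, strand -, that of MAGEA2B at chrX:152714378-152714677, strand +, and that of MAGEB2 at chrX:30215313-30215612, strand +.
XAGE1B: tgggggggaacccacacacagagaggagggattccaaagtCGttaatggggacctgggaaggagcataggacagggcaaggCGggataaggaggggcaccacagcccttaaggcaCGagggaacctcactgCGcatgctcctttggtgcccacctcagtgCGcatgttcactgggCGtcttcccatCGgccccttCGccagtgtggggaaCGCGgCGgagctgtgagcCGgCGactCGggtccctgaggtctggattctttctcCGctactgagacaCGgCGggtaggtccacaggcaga
MAGEA2B: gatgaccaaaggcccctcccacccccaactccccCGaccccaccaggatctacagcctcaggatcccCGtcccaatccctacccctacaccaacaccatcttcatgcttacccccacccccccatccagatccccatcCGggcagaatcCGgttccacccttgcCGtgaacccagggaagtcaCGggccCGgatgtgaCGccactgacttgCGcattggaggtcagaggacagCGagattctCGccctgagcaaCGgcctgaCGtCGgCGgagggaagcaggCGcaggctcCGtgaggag
MAGEB2: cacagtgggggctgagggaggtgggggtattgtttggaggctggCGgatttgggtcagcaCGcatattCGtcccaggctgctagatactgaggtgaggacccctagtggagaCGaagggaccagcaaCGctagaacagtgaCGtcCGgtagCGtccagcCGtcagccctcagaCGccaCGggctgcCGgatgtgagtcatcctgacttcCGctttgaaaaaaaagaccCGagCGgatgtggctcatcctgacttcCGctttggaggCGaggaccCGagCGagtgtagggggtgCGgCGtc
The XAGE1B window held 17 CG, as did that of MAGEA2B, and the MAGEB2 window held 21. The window of XAGE1A, the copy of XAGE1B nearby on the X chromosome, was 100% identical to that of XAGE1B over 300 bases. Whether the array probe separates XAGE1A from XAGE1B was not tested, since no probe or transcript sequence was compared. MAGEA2 and MAGEA2B were likewise 100% identical over 258 aligned bases.

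Of the 58 signals, 32 exceeded the floor in either line: 29 in both, 3 in HL60 only and 0 in R-HL60 only. The floor was the median signal of each array, 32.8 units in R-HL60 and 30.7 units in HL60. Differences are given on the log2 scale as R-HL60 minus HL60, after the 75th percentile of each array was subtracted. Where 1 array was under its floor, only a bound can be given, marked by the words at least. Among the 32 signals, 4 were at least 2-fold lower in R-HL60 (XAGE1B, LY6K, MAGEA2B and TCAM1P) and 0 were at least 2-fold higher. Across all 23547 genes that exceeded the floor in either line, 0.297% were at least 2-fold lower and 0.786% at least 2-fold higher. With XAGE1B, LY6K and TCAM1P set aside, whose results were known beforehand, 1 signal was at least 2-fold lower, MAGEA2B, and it missed 2-fold in 3 alternative settings given with its values. The count of 4 is therefore a description and not a result about the families. In cell lines measured in bulk, fewer cells that express a gene and less RNA per cell cannot be told apart.

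**Figure D1:**
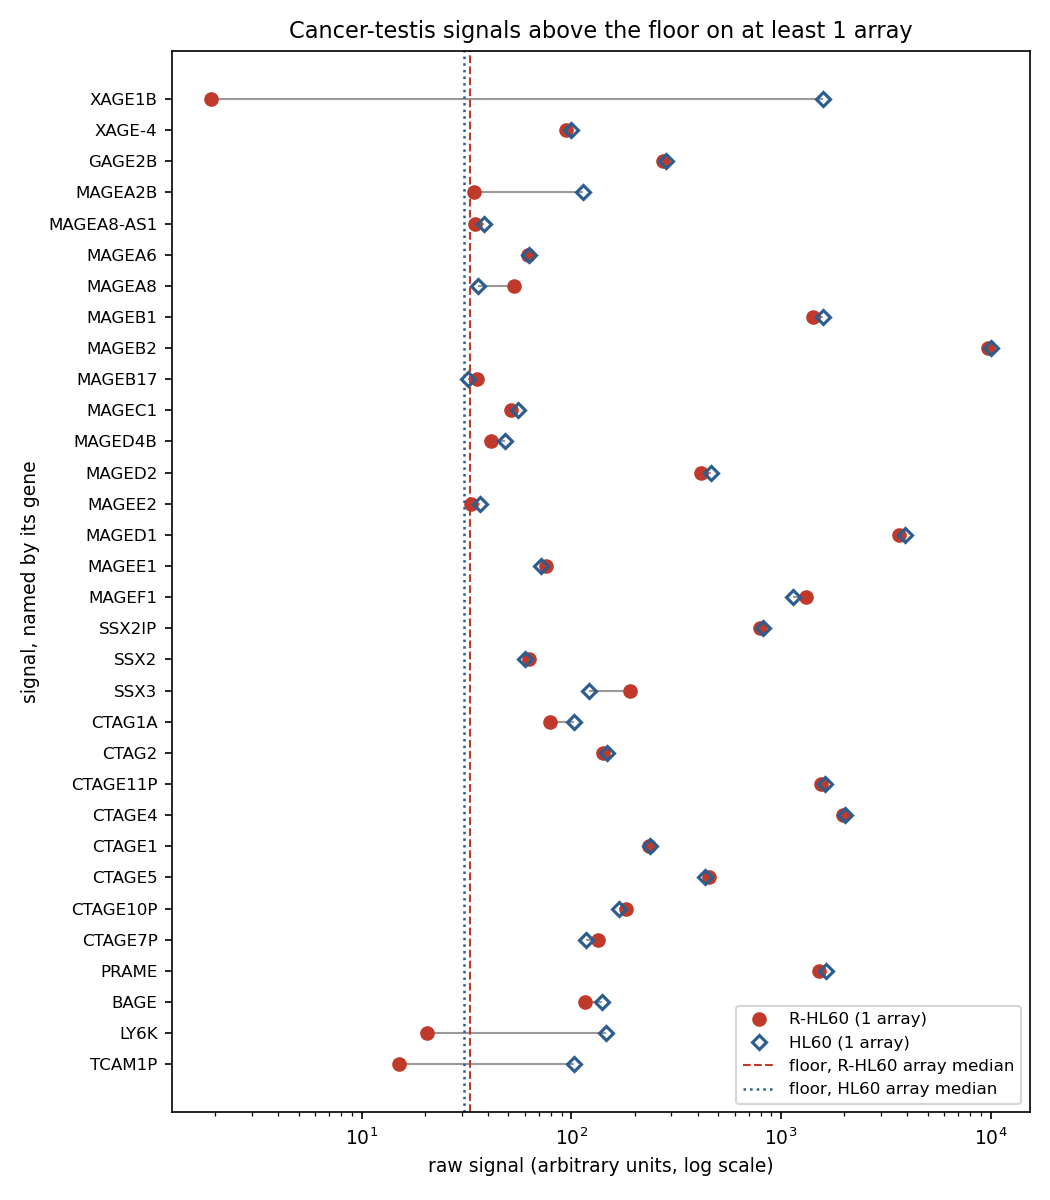
Raw signal (arbitrary units, log scale) of the 32 signals that exceeded the floor in either line, with R-HL60 as filled circles and HL60 as open diamonds, 1 array each, and dashed or dotted lines at the floors of 32.8 and 30.7 units. XAGE1B is at 1.92 in R-HL60 and 1583 in HL60, and most other pairs nearly coincide.

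XAGE1B had the largest difference of the families. It encodes a small GAGE-related antigen that is recognised by antibodies in some patients with lung cancer. Its only row gave 1.92 units in R-HL60, close to the lowest signal of that array, 1.54, against 1583 units in HL60. R-HL60 was thus under the floor and HL60 well above it, a difference of at least 48.5-fold (bound -5.60). With 50 units added to every signal, which shrinks differences that rest on dim signals, the bound was -4.31. The other XAGE name above the floor, the pseudogene XAGE-4, had 93.8 units in R-HL60 and 99.4 in HL60 (-0.09). XAGE2, XAGE3 and XAGE5 were under the floor on both arrays, between 8.21 and 15.4 units in R-HL60 and between 3.76 and 25.5 in HL60. Of the 2 XAGE rows with signal in HL60, the XAGE1B row was thus under the floor in R-HL60 and the XAGE-4 row was not.

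The genes next to XAGE1 on the X chromosome that were above the floor gave similar signals in both lines. Neighbours were taken from the RefSeq gene order of GRCh38.p14, 5 names on the array to each side. On the near side in chromosome order stood XAGE2, SNORA11D, MAGED4B, MAGED1 and GSPT2, and on the far side SSX8, SSX7, SSX2, SPANXN5 and XAGE5. Of these 10 names, 4 were above the floor on both arrays, with differences between -0.22 for MAGED4B and 0.15 for the small nucleolar RNA SNORA11D. SNORA11D had 989 units in R-HL60 and 889 in HL60, and the other 6 neighbours, GSPT2 among them, were under the floor in both lines. The other X-linked genes with signal on both arrays numbered 467, with a median difference of -0.03, and 0 of them were at least 2-fold lower. Among X-linked genes with a bound, 1 was, the synaptic scaffold gene DLG3 at -1.58. In the other direction, 2 X-linked genes were at least 2-fold higher in R-HL60, the phagocyte oxidase gene CYBB at 2.26 and FAM155B with a bound of 1.47.

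**Figure D2:**
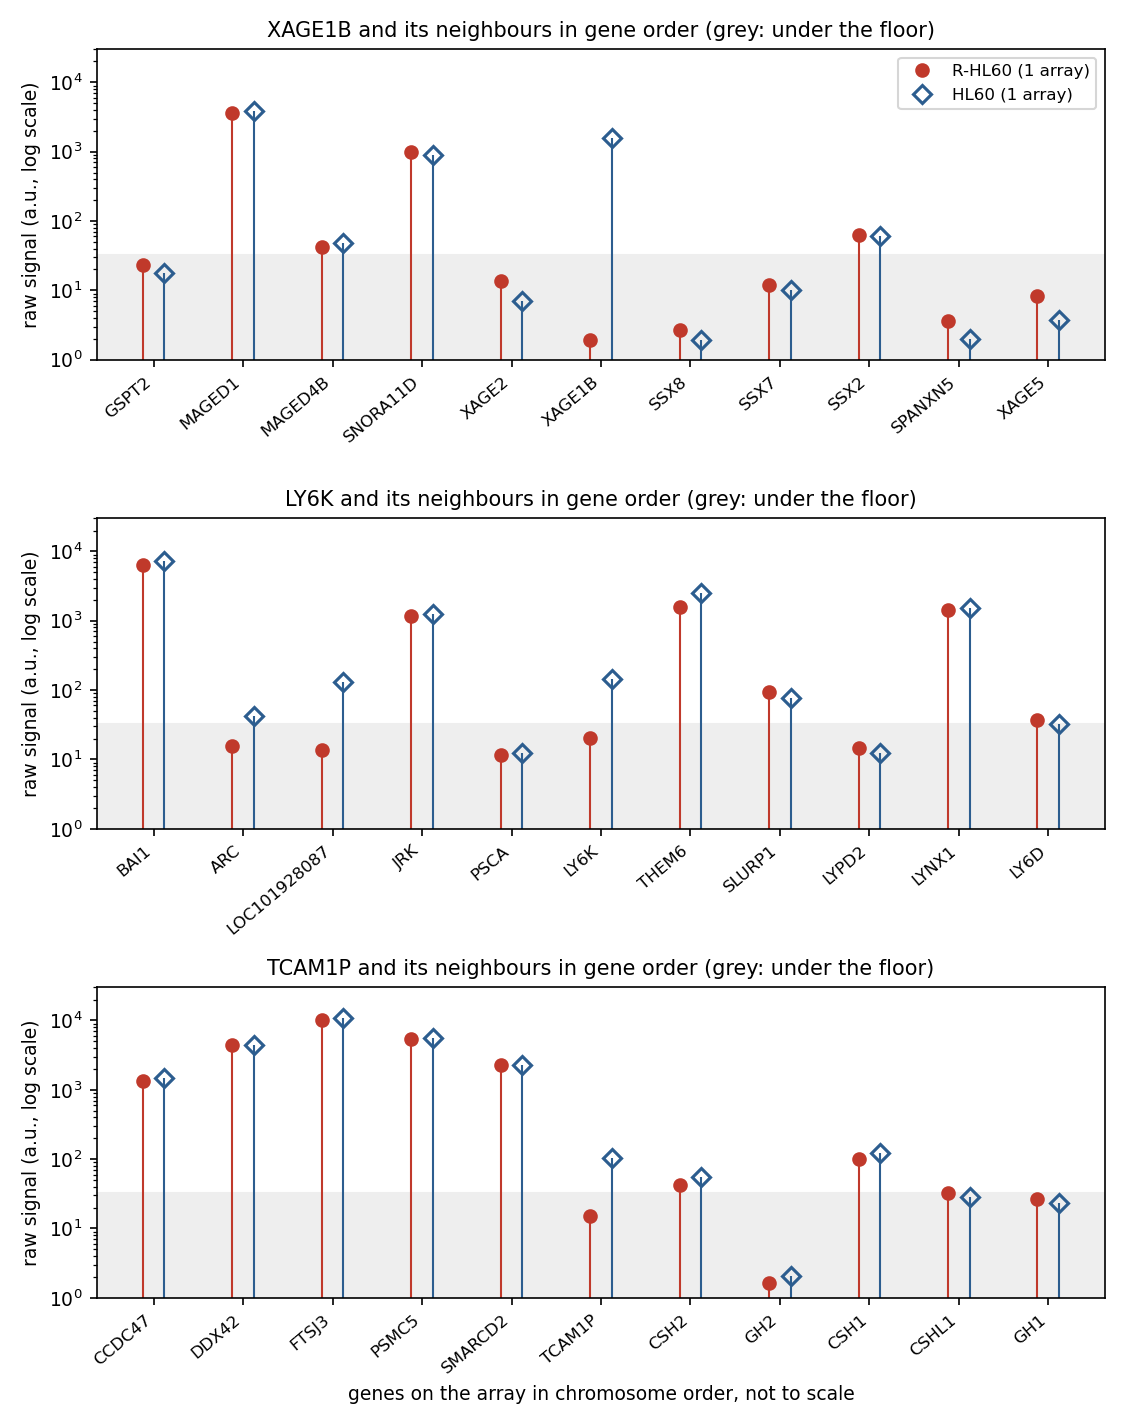
Raw signal (arbitrary units, log scale) of XAGE1B, LY6K and TCAM1P and 5 array genes to each side in chromosome order, not to scale, with R-HL60 as filled circles, HL60 as open diamonds, and the range under the floor in grey. Above the floor, the XAGE1B and TCAM1P neighbours have paired symbols at like heights, while LOC101928087 near LY6K is at 13.8 in R-HL60 and 132 in HL60.

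LY6K and TCAM1P, which do not belong to the X-linked families, were also above the floor in HL60 only. LY6K, on chromosome 8, encodes a surface protein anchored by glycolipid that is needed for male fertility in the mouse. Its only row gave 20.6 units in R-HL60 against 145 in HL60, at least 4.46-fold lower (bound -2.16, and -1.25 with 50 units added). Among its 10 neighbours on the array, the non-coding transcript LOC101928087 gave 13.8 units in R-HL60 and 132 in HL60, at least 4.04-fold lower. THEM6, the next gene on the other side, had 1566 units in R-HL60 and 2500 in HL60 (-0.68), and the neuronal gene ARC had 15.5 and 42.6, a bound of -0.39. Of the rest, JRK (-0.10), ADGRB1, named BAI1 on the array (-0.19), LYNX1 (-0.07), SLURP1 (0.30) and LY6D (0.17) were within 2-fold. PSCA and LYPD2 were under the floor on both arrays. So 2 neighbours, LOC101928087 and ARC, were under the floor in R-HL60 alone, as LY6K was, and the other 8 were not. Of 22 other LY6 and uPAR family genes on the array, 15 were above the floor on both and 0 were past 2-fold, with GPIHBP1 at -0.41 the largest difference.

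TCAM1P, on chromosome 17, is a transcribed pseudogene of a testicular cell adhesion molecule. Its brighter row gave 15.0 units in R-HL60 and 103 in HL60, at least 3.16-fold lower (bound -1.66). Its other row was under the floor on both arrays, at 12.7 units in R-HL60 and 16.0 in HL60. The call rests on a dim row: with 50 units added the bound was -0.89, with the floor at the 60th percentile -0.68, and with the mean of both rows -0.32. Of its 10 neighbours, 7 were above the floor on both arrays, all within 2-fold, between -0.39 for the placental hormone gene CSH2 and -0.01 for the helicase gene DDX42.

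Type I MAGE genes, those of the A, B and C clusters on the X chromosome, are the testis-restricted branch of a family whose proteins bind ubiquitin ligases. 4 of 10 MAGEA signals, 3 of 10 MAGEB signals and 1 of 3 MAGEC signals were above the floor, and MAGEA2B was the only one of them past 2-fold. Both MAGEA counts include the antisense transcript MAGEA8-AS1, which is a non-coding RNA. MAGEA2B, the twin of MAGEA2, whose protein binds TRIM28 and p53, had 34.5 units in R-HL60 and 114 in HL60 (-1.74, or 3.33-fold lower). The R-HL60 value stood just above the floor of 32.8 units, and the second MAGEA2B row was under the floor on both arrays, at 1.65 units in R-HL60 and 2.84 in HL60. With 50 units added the MAGEA2B difference was -0.97 and with the floor at the 60th percentile the bound was -0.83, both short of 2-fold. In the mean of both rows the gene was under the floor on both arrays. MAGEA12, counted with MAGEA2B, was under the floor on both arrays too, at 22.9 units in R-HL60 and 25.1 in HL60.

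The rows of MAGEA6, the twin of MAGEA3, gave different values. The brighter row was equal in both lines, at 61.8 units in R-HL60 and 62.5 in HL60 (-0.02). The other row had 17.8 units in R-HL60, under the floor, and 58.2 in HL60, a bound of -0.83. The promoter of MAGEA6 aligned to that of MAGEA2B with 88.4% identity, under the 90% set for joining names on the array, so these were counted as separate signals. MAGEA2, which is no name on the array, aligned to MAGEA6 with 90.1% identity over 233 bases. MAGEA8 was higher in R-HL60, at 53.2 units against 35.8 in HL60 (0.56), and its antisense transcript MAGEA8-AS1 had 34.6 units in R-HL60 and 38.3 in HL60 (-0.16). The first MAGE gene found, MAGEA1, was under the floor on both arrays, at 1.59 units in R-HL60 and 4.97 in HL60. The other MAGEA signals under the floor on both arrays were those of MAGEA4, MAGEA9, MAGEA10, MAGEA11 and MAGEA10-MAGEA5, none above 18.8 units in either line.

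MAGEB2 and MAGEB1, which lie close together on the X chromosome, gave clear and nearly equal signals. MAGEB2 had 9678 units in R-HL60 and 9996 in HL60 (-0.06, and 0.02 in the authors' table), and MAGEB1 had 1416 and 1590 (-0.18). MAGEB17 was near the floor, with 35.4 units in R-HL60 and 32.2 in HL60 (0.13). The other 7 MAGEB signals were under the floor on both arrays, up to 26.3 units in R-HL60 and 22.8 in HL60. MAGEC1 had 51.4 units in R-HL60 and 55.6 in HL60 (-0.12), with MAGEC2 and MAGEC3 under the floor. The MAGEB genes on the array that had signal in the parental line thus kept it in the resistant line.

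Type II MAGE genes are expressed in many tissues. Those in the name rule were above the floor on both arrays in 6 of 6 cases and within 2-fold. MAGED1, which binds the neurotrophin receptor p75, had 3634 units in R-HL60 and 3900 in HL60 (-0.11). MAGEF1, which works with the ubiquitin ligase NSMCE1, had 1316 and 1134 (0.21). MAGED2, needed for salt reabsorption in the fetal kidney, had 414 and 465 on its brighter row (-0.18) and 57.7 and 52.3 on the other (0.13), so its rows differed in sign by a small amount. MAGED4B had 41.5 units in R-HL60 and 48.0 in HL60 (-0.22), MAGEE1 76.0 and 71.9 (0.07), and MAGEE2 33.4 and 36.6 (-0.14). Outside the name rule, MAGEH1 and MAGEL2, also of the MAGE fold, were at 0.23 and 0.28 and NSMCE3, named NDNL2 on the array, at -0.21. NDN, of the same fold, was under the floor on both arrays, at 8.81 units in R-HL60 and 3.33 in HL60. A further list held ubiquitin ligase genes of the MAGE and PRAME kind of complex, the deubiquitinase gene USP7 and the PRAME relatives PRAMEF1 and PRAMEF10. Of its 15 genes, 12 were above the floor on both arrays with 0 past 2-fold. TRIM28 was among them at -0.08, and the elongin B gene, named TCEB2 on the array, had the largest difference at -0.25.

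**Figure D3:**
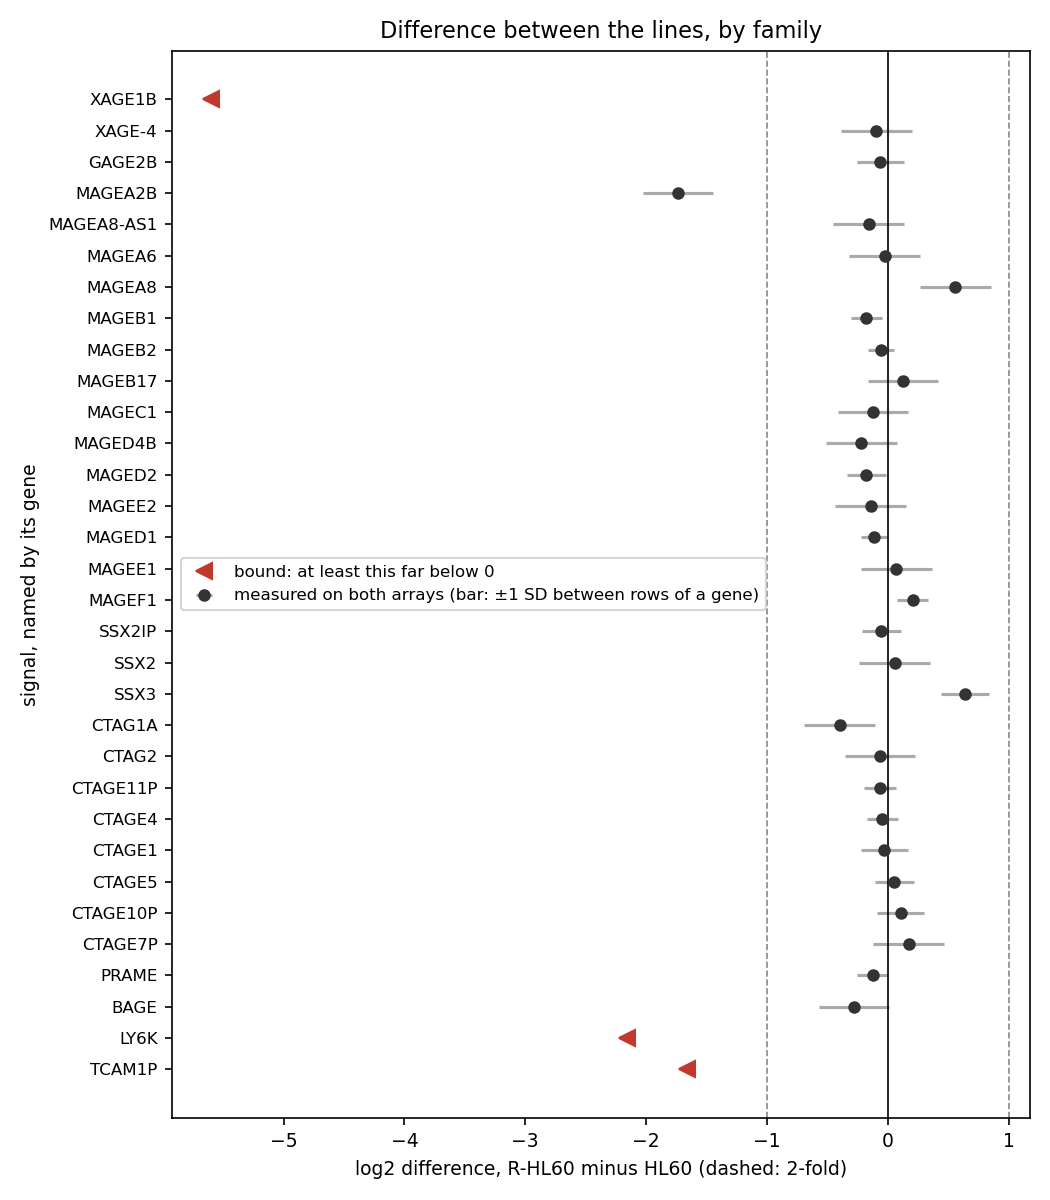
Log2 difference, R-HL60 minus HL60, of the 32 signals by family, with circles for those measured on both arrays, bars of 1 SD to each side for the spread between rows of a gene at like brightness, and triangles for bounds. XAGE1B (-5.60), LY6K (-2.16), MAGEA2B (-1.74) and TCAM1P (-1.66) lie past the dashed 2-fold line, and SSX3 at 0.64 is the highest.

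SSX proteins are repressors that bind ubiquitin-marked chromatin and are fused to SS18 in synovial sarcoma. SSX3 was the highest difference of all members, with 191 units in R-HL60 and 122 in HL60 (0.64, or 1.56-fold). Its second row was 58.6 units in R-HL60 and 23.1, under the floor, in HL60, a bound of 0.93. Both SSX3 rows were higher in R-HL60. The brighter row was short of 2-fold, and the bound does not settle this for the second. SSX2 had 62.8 units in R-HL60 and 60.0 in HL60 (0.06). SSX5, counted with SSX2, stood at the floor with 29.4 units in R-HL60 and 33.0 in HL60. SSX1, SSX6 and SSX8 were under the floor, at no more than 2.67 units in R-HL60 and 2.06 in HL60. SSX2IP, a centrosomal partner of SSX2, had 790 units in R-HL60 and 815 in HL60 (-0.05).

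GAGE2B, of a cluster of short acidic antigens, had 273 units in R-HL60 and 283 in HL60 (-0.06). GAGE1 and GAGE7 were both under the floor, with GAGE1 at 12.1 units in R-HL60 and 13.7 in HL60. The promoters of GAGE1 and GAGE7 (GAGE12F in RefSeq) were 100% identical over 293 aligned bases. GAGE2B did not match the gene table, so it could not be compared with them by promoter and was counted separately. The 4 PAGE signals were all under the floor, up to 21.2 units in R-HL60 and 13.2 in HL60.

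The antigens CTAG1 and CTAG2, known as NY-ESO-1 and LAGE-1, were above the floor in both lines. CTAG1A had 78.8 units in R-HL60 and 103 in HL60 (-0.40), the largest difference among signals that did not pass 2-fold on the lower side. CTAG2 had 142 units in R-HL60 and 147 in HL60 (-0.06). PRAME, a substrate receptor of a cullin-2 ligase that represses retinoic acid signalling, had 1510 and 1636 units on its brightest row (-0.12). A second PRAME row gave 989 units in R-HL60 and 986 in HL60 (-0.00), and the remaining row was under the floor. BAGE, first found as a melanoma antigen, had 116 units in R-HL60 and 139 in HL60 (-0.28). Both PRAME rows above the floor were thus near equal in the 2 lines.

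The CTAGE genes derive from MIA2, named CTAGE5 on the array, which helps large cargo leave the endoplasmic reticulum. All 6 of their signals were above the floor on both arrays, between -0.06 and 0.17. CTAGE4 had 1977 units in R-HL60 and 2027 in HL60, and the pseudogene CTAGE11P had 1550 and 1611. CTAGE5 had 455 and 435, CTAGE1 had 235 and 238, CTAGE10P had 183 and 169, and CTAGE7P had 133 and 118. CTAGE15, counted with CTAGE4, had 187 units in R-HL60 and 205 in HL60 (-0.14).

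Over the 29 signals measured on both arrays the median difference was -0.06, with 20 below 0 and 9 above. For all 21851 genes measured on both arrays the median was -0.03 and 57.2% were below 0. Of the 29 signals, 22 lay within 0.2 of 0 (75.9%), against 66.8% of all genes. Rows of the same gene gave log2 differences with an SD of 0.19 over 4721 genes, and of 0.29 in the dimmest of 5 brightness bins. This spread leaves out cultures and arrays, and also rows under the floor on 1 or both arrays. Divided by the SD of its bin, the difference of MAGEA2B was -5.93, that of SSX3 was 3.26 and that of MAGEA8 was 1.92. MAGEA2B stood just above the floor in R-HL60, where the spread between rows may be larger than this SD. Only 5 members had more than 1 row above the floor on both arrays (CTAGE4, CTAGE5, MAGED2, PRAME and SSX2IP), and their rows differed by at most 0.31. This leaves out MAGEA6, with 1 row at -0.02 and the other, under the floor in R-HL60, at a bound of -0.83. XAGE1B and LY6K had a single row each, and the second rows of MAGEA2B and TCAM1P were under the floor in both lines, so no second row measured these differences.

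Of the 4 members at least 2-fold lower, XAGE1B and MAGEA2B have a promoter in the RefSeq table used here. A RefSeq window was found for 45 of the 64 names, and these held between 1 and 32 CG with a median of 12, against a median of 14 over 27305 promoters of the same length. The motif searched was CG, which reads the same on both strands. At least 10 CG were found in 32 of the 45, against 56.0% of all promoters. XAGE1B and MAGEA2B with 17 CG each had counts between those of signals that were near equal in both lines, such as MAGEC1 with 14 and MAGEB2 with 21. The MAGEB1 window counted here held 1 CG. CG was counted in 1 window per name, and windows at other transcript starts of the same gene can differ. Copies joined to 1 signal elsewhere, such as CTAGE4 and CTAGE15, were each counted here. Methylation of these windows was not measured.

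**Figure D4:**
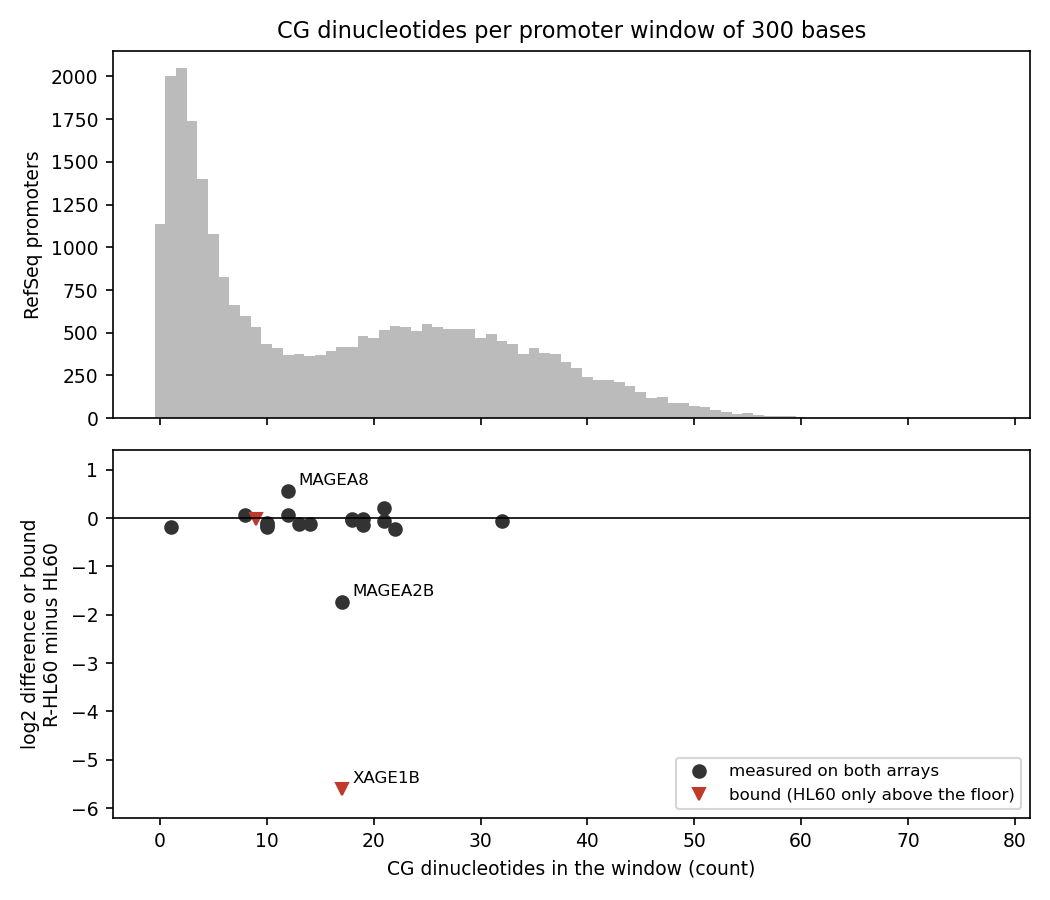
The upper panel counts RefSeq promoter windows of 300 bases by their number of CG, and the lower panel sets the log2 difference or bound (R-HL60 minus HL60) of members above the floor against that number. XAGE1B and MAGEA2B, both with 17 CG, lie far below 0 among members of like CG count near 0.

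Genes of DNA methylation, its removal and germline gene control were within 2-fold between the lines. Of 44 such genes on the array, 42 were above the floor on both, with a median of -0.10, 34 below 0 and 0 past 2-fold. For all genes measured on both arrays the median was -0.03 and 57.2% were below 0, a share not matched for brightness. The sign of a small difference can turn with the scaling, as for the bright MAGEB2, at -0.06 here and 0.02 with quantile normalization. The largest difference was that of MBD1, a reader of methylated DNA, at 0.39. The methyltransferase genes DNMT1, DNMT3A and DNMT3B, named after their values were seen, were at -0.11, -0.14 and -0.26, and the cofactor UHRF1 at -0.17.

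Among other cancer-testis genes, outside the name rule, no difference or bound passed 2-fold in either direction. For genes with only a bound this does not settle whether they differed by 2-fold. TMEM108, above the floor in HL60 only, had 14.5 units in R-HL60 and 37.3 in HL60 (bound -0.19). HSFX1, MORC1 and SPAG6 were above the floor in R-HL60 only. On the X chromosome 10 of 34 were above the floor, 9 of them on both arrays, with CT55 at -0.34 the largest difference among the 9. RHOXF2 was the brightest, at 246366 units in R-HL60 and 244591 in HL60 (0.00). FTHL17, a ferritin-like germ cell gene, had 4395 units in R-HL60 and 4030 in HL60. Of 66 autosomal ones, 33 were above the floor, 30 of them on both arrays, with a median of 0.01. ACTL8, an actin-like gene, was the largest difference at 550 units in R-HL60 and 950 in HL60 (-0.80), and GPAT2, an acyltransferase of the germline, was at 0.63. PRAME relatives, PRAME partners and retinoic acid receptors had 4 of 15 genes above the floor, between EZH2 at -0.11 and PRAMEF5 at 0.03.

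The arrays gave the signals of promyelocytic cells. All 10 promyelocyte markers were above the floor in both lines, with summed signals of 893043 in R-HL60 and 1012247 in HL60. Their differences were below 0 in 10 of 10, against 57.2% of all genes measured on both arrays, a share not matched for brightness. ELANE, the neutrophil elastase gene, was past 2-fold, at 153 units in R-HL60 and 700 in HL60, and the other 9 were not. The part of these markers in the differences of the antigen genes was not tested. Germ cell markers had 6 of 16 above the floor with sums of 1628 in R-HL60 and 1447 in HL60. These were TEX14, at 1152 units in R-HL60 and 936 in HL60, and the dimmer PRM1, PRM2, SYCP1, SYCP2 and PIWIL2, while the other 10, DDX4 and DAZL among them, were under the floor in both lines. Fibroblast markers had 2 of 6 with sums of 124 in R-HL60 and 108 in HL60. Epithelial and melanocyte markers had 6 of 9 above the floor, with sums of 2129 in R-HL60 and 1913 in HL60. KRT8, KRT18, KRT19, DCT, MLANA and PMEL were above it in both lines, and EPCAM, CDH1 and TYR were under it in both. No difference or bound of these markers of other cells was past 2-fold. The fibroblast marker DCN, above the floor in R-HL60 only, had a bound of 0.29, which does not settle this for DCN.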

How the data were processed

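Per the labels' protocols, total RNA was amplified, labelled with Cy3 and hybridised to 1 array per line. The submitters' processing notes name Agilent Feature Extraction, version 10.7.3.1. Each deposited array file holds 1 linear intensity per row, with a gene name and no probe identifier or flag. The sources used here name neither the scanner column nor the background treatment. A further deposited table of normalized intensities, method likewise unstated, is the authors' own. Its sorted values lay within 0.515% of the rank means of both arrays, which plain quantile normalization would give. It served as an alternative.

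Intensities were taken to log2 and the 75th percentile of the array was subtracted. The median of the array was the floor, and the row with the highest mean stood for a gene. Bounds set the bright value against the floor, or the dim value where that was higher. Near-identical copies were to be joined by protein identity. RefSeq promoters were used instead, by local alignment over at least 200 bases. Of the 64 names, 62 matched the gene table of GRCh38.p14, 5 through an older name. BAGE and GAGE2B kept the file's name. The members and lists were chosen with earlier results of these data known. All signals above the floor were named, list genes when past 2-fold or otherwise the largest difference, and 5 neighbours on each side of XAGE1, LY6K and TCAM1P. Genes in several lists were counted in each, and 1 marker list is not reported here. Some other list genes and row-level values were named after they were seen. With 1 array per line no test was run, and the number of arrays limits the precision. Scaling, floor, offset, row choice, copy rule and fold threshold were varied. The steps were tested on simulated data. Python 3.11.15, numpy 2.4.6, pandas 2.3.3, statsmodels 0.14.6, Biopython 1.88 and matplotlib 3.10.9 were used.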

Additional observations from a re-analysis of the deposited data

How the results depend on the processing

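XAGE1B and LY6K were at least 2-fold lower in R-HL60 in every setting that held them. MAGEA2B and TCAM1P missed 2-fold with the offset of 50 units, the floor at the 60th percentile and the mean of all rows, where MAGEA2B was under the floor on both arrays. The authors' table gave nearly the same values as quantile normalization, with XAGE1B at -5.62 in both, so these are not separate checks. The count of 4 lower signals was the same with quantile normalization, a median shift, loess and the authors' table. It was the same with the floor at the 40th percentile, thresholds of 1.5-fold and 3-fold, and every name as its own signal. It was also 4 with copies joined at 80% promoter identity or without SSX2IP, CTAGE5 and MAGEA8-AS1, both chosen after seeing the data. It was 2 with an offset of 50 units, 2 with the floor at the 60th percentile, 2 with the mean of all rows and 2 without LY6K and TCAM1P. It was 1 without XAGE1B, LY6K and TCAM1P. Both of these sets were also chosen after seeing the data. Without a floor it was 9 of 58, where 3.01% of all names passed, and 2 were higher, MAGEB3 and XAGE5, where 5.87% passed. At 1.5-fold, 1 signal, SSX3, was higher. With the offset, differences or bounds were -4.31 for XAGE1B, -1.25 for LY6K, -0.97 for MAGEA2B and -0.89 for TCAM1P. With the floor at the 60th percentile they were -4.62, -1.18, -0.83 and -0.68 in the same order. With the floor at the 40th percentile they were -6.47 for XAGE1B, -2.83 for LY6K and -2.53 for TCAM1P, and with no floor -9.70, -2.83 and -2.79. TCAM1P was at -0.32 with the mean of all rows. Bounds move with the floor by construction. Values that stay measured on both arrays cannot change with the floor, and genes with 1 row cannot change with the mean of rows. Many of the values counted next could therefore not move in those settings. Of 240 values of signals that did not pass 2-fold, 236 moved by no more than the spread between rows, and 4 moved further: MAGEA8 to 0.26 with the offset, and MAGEA6 to -0.87, SSX3 to 0.99 and CTAGE5 to -0.45, a turn of sign, with the mean of all rows. Signs of differences near 0 turned with the scaling: CTAGE5, MAGEE1 and SSX2 were below 0 with the median shift, and CTAGE4 and MAGEB2 above 0 with quantile normalization, loess and the authors' table. The median of the families ran from -0.15 with the median shift to -0.05 with loess, quantile normalization and the authors' table. Joining copies at 80% protein identity was not run, as proteins were not used here. No paired analysis was possible because each line had 1 array. MAGEA2B in R-HL60 stood just above the floor, and how background was treated is unknown.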
